A study of Mus musculus with 15 samples.

Results

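The H3K4 methyltransferase complex genes encode the enzymes that place the H3K4me3 mark and the subunits those enzymes share, and this mark was itself measured at their promoters. The 10 genes were the 6 catalytic subunits Kmt2a, Kmt2b, Kmt2c, Kmt2d, Setd1a and Setd1b and the 4 core subunits Wdr5, Ash2l, Rbbp5 and Dpy30. They were chosen by name, out of 21770 protein-coding genes of the annotation. Every H3K4me3 peak within 2000 bp of any annotated start of these genes was taken as a promoter peak. All 10 genes had at least 1 promoter peak in each of the 3 peak lists.

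Methyl groups on lysine 4 of histone H3 are written by large complexes. One catalytic subunit with a SET domain binds a module of WDR5, RBBP5, ASH2L and DPY30, without which it works poorly. SETD1A and SETD1B make most of the trimethyl mark at active promoters, KMT2A and KMT2B act at subsets of promoters, and KMT2C and KMT2D mainly place the monomethyl mark at enhancers. The trimethyl mark sits on nucleosomes on both sides of a start site, and the start itself is usually poor in nucleosomes. 2-hydroxyglutarate is a competitive inhibitor of dioxygenases that need 2-oxoglutarate, among them the KDM5 and KDM4 histone demethylases.

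H3K4me3 was mapped by ChIP–seq in mBA cells, which the methods describe as immortalized brown preadipocytes differentiated into adipocytes and the labels as primary cells from brown adipose tissue. There were 4 ChIP samples each of wild-type cells (WT), wild-type cells given 500 µM octyl d-2HG for 72 h (WT + 2HG, or with 2HG) and cells that lack CLPP, a protease of the mitochondrial matrix (CLPP-KO), with 1 input sample per condition. The CLPP-KO cells derive from mice that lack Clpp in the whole body. The octyl d-2HG was given in DMSO, and a vehicle for the untreated cells is not given in the sources used here. Of the 3 groups, only CLPP-KO cells were grown with uridine, so the loss of CLPP and the supplement cannot be told apart. The authors called 1 list of peaks from the 4 replicates of a condition together. No value therefore has a replicate error, no difference between lists was tested, and a difference between conditions cannot be told apart from one between their lists in depth, since the methods give a single nominal depth for the study and none per list. In chromatin from bulk cells, more cells with the mark and more mark per cell cannot be told apart either. The lists held 12342 peaks in WT, 14059 with 2HG and 15118 in CLPP-KO. Of 12 brown adipocyte markers, only Pparg, Cebpa and Prdm16 had a promoter peak in all 3 lists. Plin1 and Cidea had one in WT + 2HG and CLPP-KO, Lipe in WT + 2HG alone and Ebf2 in CLPP-KO alone. Fabp4, Adipoq, Ucp1, Ppargc1a and Dio2 had one in none. None of 4 macrophage markers was marked in any list. Of 4 endothelial markers Kdr was marked in all 3 lists and the others in none. Of 4 skeletal muscle markers Des was marked in WT + 2HG and CLPP-KO, and Myod1 in CLPP-KO. Their part in the results was not tested. Clpp had a promoter peak in every list, which does not check its deletion.

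For each gene the promoter peak with the largest area under the curve is called its strongest peak. The area is not scaled between lists, so its percentile within its own list is given: the share of all peaks of that list with an area at or below it. Because the longer lists hold more weak peaks, a percentile can rise when nothing changes at a promoter. A shared rank is therefore given too, which is the same percentile among the strongest peaks of the 11021 protein-coding genes marked in all 3 lists. Positions are in the GRCm39 build and distances run along transcription from the canonical GENCODE start, negative upstream.

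Sequences from the promoters described below are shown here 5′ to 3′ along the gene, with every CpG in capitals. The Kmt2a run of 285 bases (chr9:44792640-44792924, minus strand) is the gap between the 2 WT peaks that is filled in the other lists. The Kmt2c run of 135 bases (chr5:25703831-25703965, minus strand) is the gap that no list filled.
Kmt2a gap: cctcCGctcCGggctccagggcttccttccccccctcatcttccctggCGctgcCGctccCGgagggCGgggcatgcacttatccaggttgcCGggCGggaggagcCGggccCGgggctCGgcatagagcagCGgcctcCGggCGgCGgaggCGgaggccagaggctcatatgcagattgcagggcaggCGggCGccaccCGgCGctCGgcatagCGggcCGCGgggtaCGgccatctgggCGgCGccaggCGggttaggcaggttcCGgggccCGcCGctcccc
Kmt2c gap: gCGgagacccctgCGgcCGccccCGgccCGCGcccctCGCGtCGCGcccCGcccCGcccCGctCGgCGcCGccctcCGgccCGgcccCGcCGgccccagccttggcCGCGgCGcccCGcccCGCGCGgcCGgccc
The Setd1a run of 253 bases (chr7:127375842-127376094, plus strand) starts at the canonical start and ends where the WT peak begins. The Rbbp5 run of 300 bases (chr1:132404855-132405154, plus strand) is the RefSeq promoter window of the member with the weakest mark, from 250 bases before to 50 after its start.
Setd1a start: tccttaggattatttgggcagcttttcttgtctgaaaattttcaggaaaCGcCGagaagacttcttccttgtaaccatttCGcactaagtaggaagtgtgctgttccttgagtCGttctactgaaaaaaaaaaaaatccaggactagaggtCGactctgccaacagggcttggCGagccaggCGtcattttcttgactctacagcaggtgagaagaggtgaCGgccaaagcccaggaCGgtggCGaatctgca
Rbbp5 promoter: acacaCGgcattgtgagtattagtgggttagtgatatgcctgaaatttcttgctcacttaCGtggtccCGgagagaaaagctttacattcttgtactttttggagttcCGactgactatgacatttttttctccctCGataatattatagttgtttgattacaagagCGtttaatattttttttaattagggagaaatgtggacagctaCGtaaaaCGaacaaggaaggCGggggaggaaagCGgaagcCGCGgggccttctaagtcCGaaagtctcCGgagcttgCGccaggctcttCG
The Kmt2c gap is 92.6% G+C with 28 CpGs and the Kmt2a gap 75.8% G+C with 31 CpGs, while the Setd1a run is 47.4% G+C with 10 CpGs. In the RefSeq table used here the Rbbp5 window is 44.0% G+C with 16 CpGs.

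By area, every catalytic subunit gene carried a stronger mark than every core subunit gene, while by summit the 2 sets overlapped. In WT the strongest peaks of the 6 methyltransferase genes lay between the 73.8th and the 99.1st percentile of area, with a median of 91.1, and those of the 4 core subunit genes between 24.3 and 59.0, with a median of 52.1. By area the 2 sets of genes did not overlap in any list, with lowest methyltransferase values of 88.8 with 2HG and 77.7 in CLPP-KO against highest core values of 66.6 and 71.6. By the percentile of the summit −log10 p they overlapped in all 3 lists. Ash2l stood at 74.5 in WT, above Kmt2a (68.2) and Kmt2c (65.8). With 2HG it stood at 66.9, above Kmt2a (58.8), and in CLPP-KO Wdr5 (83.1) and Ash2l (81.1) stood above Setd1a (68.9) and Kmt2c (77.8). The median of all 11021 coding genes marked in all 3 lists was 59.8 in WT, 64.8 with 2HG and 67.0 in CLPP-KO. A promoter peak in all 3 lists was found at 10 of the 10 genes, and at 50.6% of all protein-coding genes. At or above the 90th percentile were 3 of the 10 in WT, 4 with 2HG and 4 in CLPP-KO, against 12.8, 14.6 and 15.5% of the marked coding genes. Kmt2d and Setd1b were among them in every list.

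**Figure D1:**
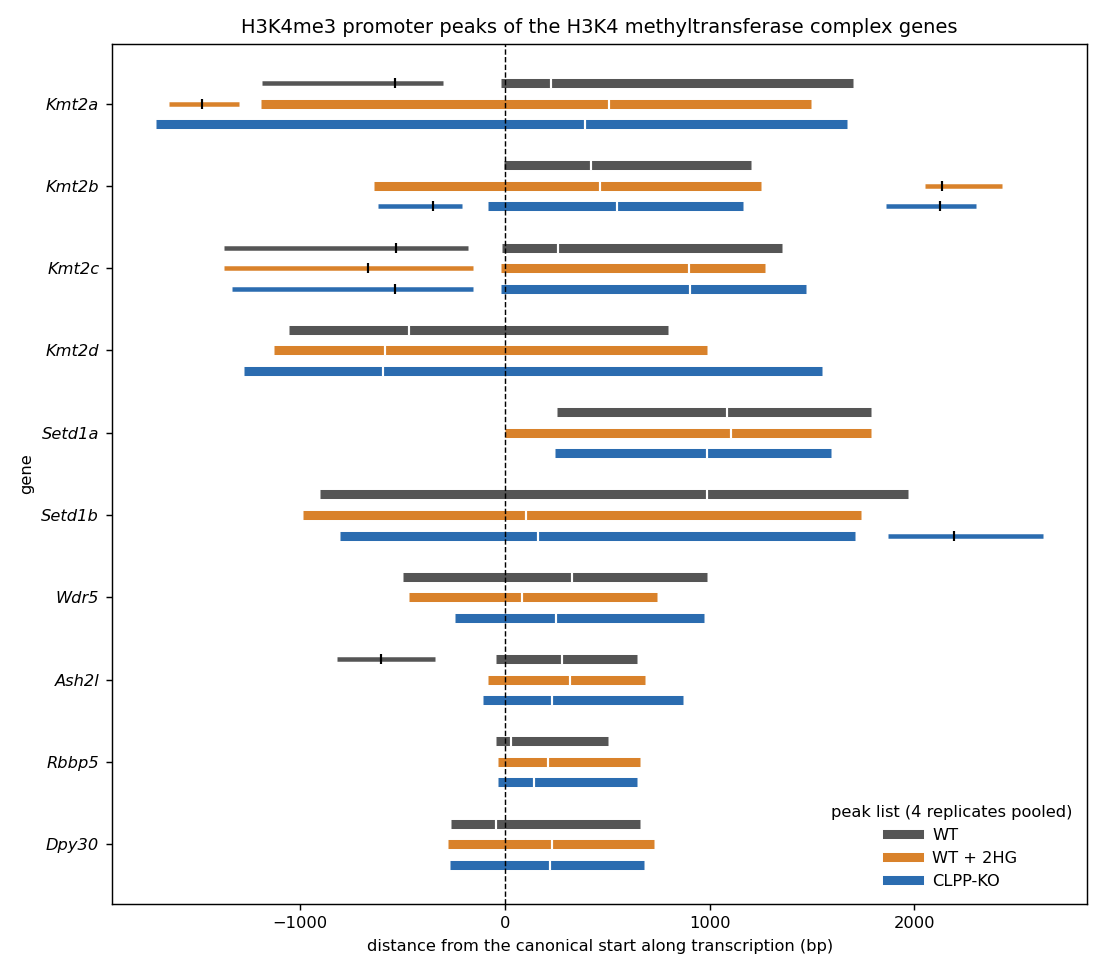
Promoter peaks of the 10 genes in the 3 peak lists, as distance in bp from the canonical start along transcription, with 1 bar per peak, thick for the strongest peak of a gene and a tick at its summit. Each list pools 4 replicates, so no error is drawn. The Kmt2a bars join just upstream of the start in WT + 2HG and CLPP-KO, and the Kmt2c bars stay apart in all 3 lists.

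Kmt2a, also known as Mll1, is the founding member of the family and keeps Hox genes active. Its promoter had 2 peaks in WT, at chr9:44790922-44792639 and chr9:44792925-44793807. The larger one began 18 bp before the start, covered the whole of exon 1 and 1225 bp of the intron after it, and was 1718 bp wide. The smaller one lay wholly upstream. The 285 bp between them, printed above, were inside 1 peak in WT + 2HG (chr9:44791127-44793815, 2689 bp) and in CLPP-KO (chr9:44790949-44794325, 3377 bp). Of the 3 members with more than 1 WT promoter peak, Kmt2a was the only one whose WT peaks were joined in this way, which happened at 38.1% of the coding genes with more than 1 WT promoter peak in WT + 2HG and at 36.9% in CLPP-KO. The WT + 2HG list had a further weak peak of 342 bp upstream, from -1641 to -1300, in a stretch that belongs to the single peak of CLPP-KO. The area percentile of the strongest peak was 77.2 in WT, 88.8 with 2HG and 93.9 in CLPP-KO. The shared rank was 12.5 points higher with 2HG and 19.3 points higher in CLPP-KO than in WT. With all promoter peaks of the gene together, the covered length was 2601 bp in WT, 3031 bp with 2HG and 3377 bp in CLPP-KO, so the difference shrank from 1659 to 776 bp once the second WT peak was counted. The summit −log10 p was 12.4, 16.5 and 25.8 in the same order. Its percentile was 68.2 in WT and 91.0 in CLPP-KO but 58.8 in WT + 2HG, so there the area and the width were above WT and the summit rank was below it.

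Kmt2b, the closest relative of Kmt2a, differed between the WT + 2HG and CLPP-KO lists. Its WT peak (chr7:30287210-30288418, 1209 bp) began 4 bp before the start and ended in the first intron. In WT + 2HG the strongest peak was 1896 bp wide and reached 642 bp upstream. In CLPP-KO the strongest peak was 1247 bp wide and reached 82 bp upstream, and a separate peak of 412 bp lay from -622 to -211. The upstream flank marked in WT + 2HG was thus also marked in CLPP-KO, but as a peak of its own after a gap of 128 bp. This makes the strongest-peak values of the 2 lists hard to set side by side, and together the promoter peaks covered 1209 bp in WT, 2274 bp with 2HG and 2101 bp in CLPP-KO. The area percentile was 73.8, 88.8 and 77.7. The shared rank was 16.7 points higher in WT + 2HG and 1.22 points lower in CLPP-KO than in WT. The WT + 2HG and CLPP-KO lists also held a weak peak over exon 3. It ran from 2051 to 2428 bp downstream in WT + 2HG, at percentile 6.57. In CLPP-KO it ran from 1862 to 2303 bp, at percentile 3.98. These peaks lay within the window of alternative starts of the gene. A promoter peak that overlapped no WT peak was present at Kmt2a and Kmt2b in WT + 2HG and at Kmt2b in CLPP-KO, against 6.66 and 7.1% of the coding genes.

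Kmt2c, whose product makes monomethyl H3K4 at enhancers, had split promoter peaks in all 3 lists. There were 2 peaks in every list, one upstream and one from just before the start into the first intron. The downstream peak began 16 bp before the start in WT, 20 bp with 2HG and 17 bp in CLPP-KO. Its width was 1372, 1293 and 1489 bp. The gap was 166, 135 and 138 bp long and shared the 135 bases printed above. The lists hold no read counts, so whether this gap lacked the mark or only lacked reads was not tested. Among 1139 gaps of at most 1000 bp between neighbouring WT promoter peaks of a coding gene, the median G+C content was 63.0%, and 99.9% of the gaps were at or below the value of the Kmt2c gap. The Kmt2a gap was less extreme, with 73.6% of gaps at or below it. The area percentile of Kmt2c was 89.1 in WT, 94.0 with 2HG and 94.6 in CLPP-KO, and the upstream peak lay at 83.0, 74.5 and 86.5. The shared rank of the strongest peak was 5.31 points higher with 2HG and 5.53 points higher in CLPP-KO. More than 1 promoter peak in WT was found at Kmt2a, Kmt2c and Ash2l, 3 of 10 members against 17.6% of the coding genes.

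Kmt2d, the partner of Kmt2c at enhancers, had a single peak in each list that spanned the start on both sides. Its width was 1850 bp in WT (chr15:98768290-98770139), 2112 bp with 2HG and 2825 bp in CLPP-KO. In CLPP-KO alone the peak also held the start of Gm62582, a lncRNA on the same strand. Most of the added width lay downstream. The downstream edge stood at 795, 985 and 1551 bp, all in the first intron, and the upstream edge at -1054, -1126 and -1273 bp. The area was near the top of each list, at percentiles 96.6, 97.1 and 97.9, and the shared rank was 0.20 and 1.03 points higher than in WT. By summit −log10 p the percentile was instead lower than in WT, at 94.0 in WT, 92.6 with 2HG and 89.0 in CLPP-KO.

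Setd1a was the member whose rank was lowest in CLPP-KO relative to WT. Its area percentile was 93.1 in WT, 91.3 with 2HG and 83.8 in CLPP-KO, and the shared rank was 3.77 points lower in WT + 2HG and 16.1 points lower in CLPP-KO. Among the coding genes, 11.6% had a change in shared rank at or below that of Setd1a in CLPP-KO. The peak was 1536 bp wide in WT (chr7:127376095-127377630), 1788 bp with 2HG and 1350 bp in CLPP-KO. It lay wholly downstream of the canonical start in WT and CLPP-KO, where it began 253 and 242 bp after it, and it began exactly at the start in WT + 2HG. The canonical start was inside no promoter peak at 1 of 10 members in WT, 0 with 2HG and 1 in CLPP-KO, against 43.3, 24.8 and 25.1% of the coding genes. The RefSeq start of Setd1a lay 719 bp further downstream than the GENCODE one and was inside the peak in all 3 lists, as was its whole promoter window of 300 bases.

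Setd1b had the strongest mark by area and, in WT, the widest mark of the 10 genes. By the percentile of the summit −log10 p in WT, Setd1a (94.3) and Kmt2d (94.0) stood above it (91.9). The area percentile of Setd1b was 99.1 in WT, 98.9 with 2HG and 98.7 in CLPP-KO. Its peak was 2873 bp wide in WT (chr5:123279352-123282224), 2723 bp with 2HG and 2518 bp in CLPP-KO. In WT it ran from -904 bp over exon 1 as far as exon 4, and in the other lists exon 3 was the last it touched. Setd1b was the only catalytic member narrower in both WT + 2HG and CLPP-KO. In CLPP-KO a weak peak of 757 bp at percentile 4.29, which overlapped the end of the WT peak, lay further downstream. With it, the covered length in CLPP-KO was 3275 bp, more than in WT.

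**Figure D2:**
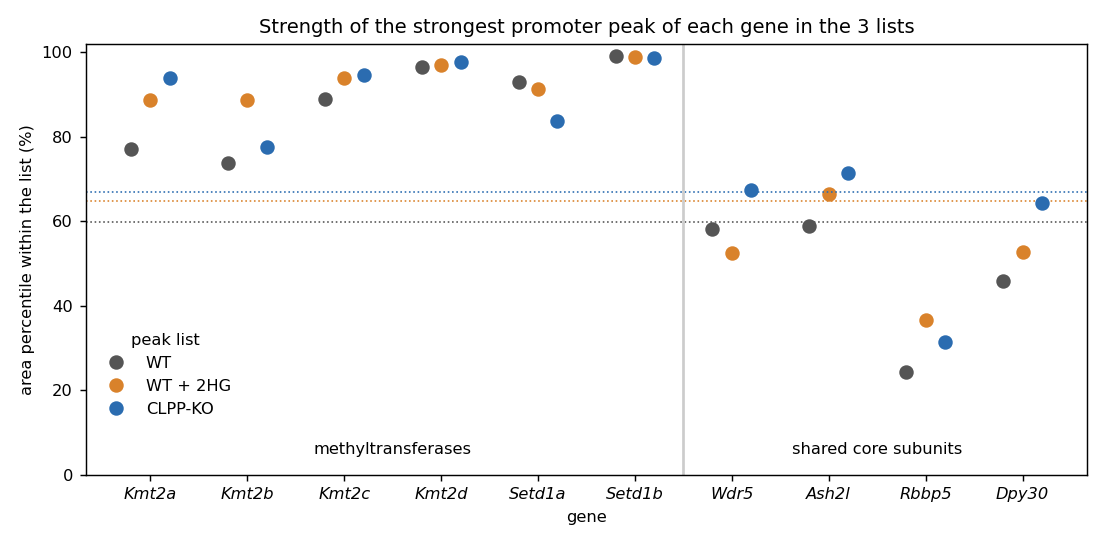
Area percentile of the strongest promoter peak of each gene within its own list, in percent, with 1 point per list (4 replicates pooled, no error) and dotted lines at the medians of the 11021 coding genes marked in all 3 lists. The 6 methyltransferase genes lie at 73.8 or above in every list, and the 4 core subunit genes lie at 71.6 or below.

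Of the core subunits, Ash2l, Rbbp5 and Dpy30 had WT peaks narrower than those of all 6 catalytic genes, and Wdr5 did not, at 1485 bp against 1209 bp at Kmt2b. Wdr5, the WD40 subunit that binds the catalytic subunits and the histone tail, was at percentile 58.3 in WT, 52.4 with 2HG and 67.4 in CLPP-KO. By shared rank it went opposite ways, 14.3 points lower with 2HG and 2.64 points higher in CLPP-KO. Its peak was narrower in both, at 1485 bp in WT (chr2:27404663-27406147), 1211 bp with 2HG and 1219 bp in CLPP-KO. The narrowing was at different ends. In WT + 2HG the downstream edge moved from 986 to 742 bp, and in CLPP-KO the upstream edge moved from -498 to -245 bp.

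Ash2l, whose product activates the catalytic subunits as a dimer with RBBP5, was at percentile 59.0 in WT, 66.6 with 2HG and 71.6 in CLPP-KO. Its strongest peak was 690 bp wide in WT (chr8:26330165-26330854), 767 bp with 2HG and 981 bp in CLPP-KO. In CLPP-KO it reached exon 2. WT alone had a second, weak peak of 478 bp from -821 to -344, at percentile 6.33. No other member lost a WT peak, and a WT promoter peak that overlapped no peak of the other list was found at 1.28% of coding genes for WT + 2HG and 1.29% for CLPP-KO. With that peak included, Ash2l covered 1168 bp in WT, 767 bp with 2HG and 981 bp in CLPP-KO, so WT then covered the most. A group of 22 further starts of Ash2l, at -6909 bp, had no peak within 2000 bp in any list.

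Rbbp5 had the weakest mark of the 10 genes in every list. Its peak was 547 bp wide in WT (chr1:132405042-132405588), 692 bp with 2HG and 680 bp in CLPP-KO, at percentiles 24.3, 36.5 and 31.4. By shared rank it was 2.00 points higher in WT + 2HG and 5.53 points lower in CLPP-KO, so its higher percentile in CLPP-KO did not hold among the shared promoters. The peak began 43, 33 and 36 bp before the start. The DNA under it was 56.7% G+C in WT, and 7.20% of the coding genes had a strongest WT peak at or below this value.

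Dpy30, the smallest subunit of the module, was at percentile 45.9 in WT, 52.7 with 2HG and 64.3 in CLPP-KO. The width hardly differed, at 923 bp in WT (chr17:74622798-74623720), 1007 bp with 2HG and 950 bp in CLPP-KO. The shared rank was 0.15 points lower with 2HG and 11.7 points higher in CLPP-KO. This was the largest difference upward in CLPP-KO after that of Kmt2a, with a peak of nearly the same width. Another start of Dpy30, at -7481 bp, had no peak in any list, and the RefSeq window at that start held 1 CpG against 30 to 39 in the other 3 windows of the gene.

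**Figure D3:**
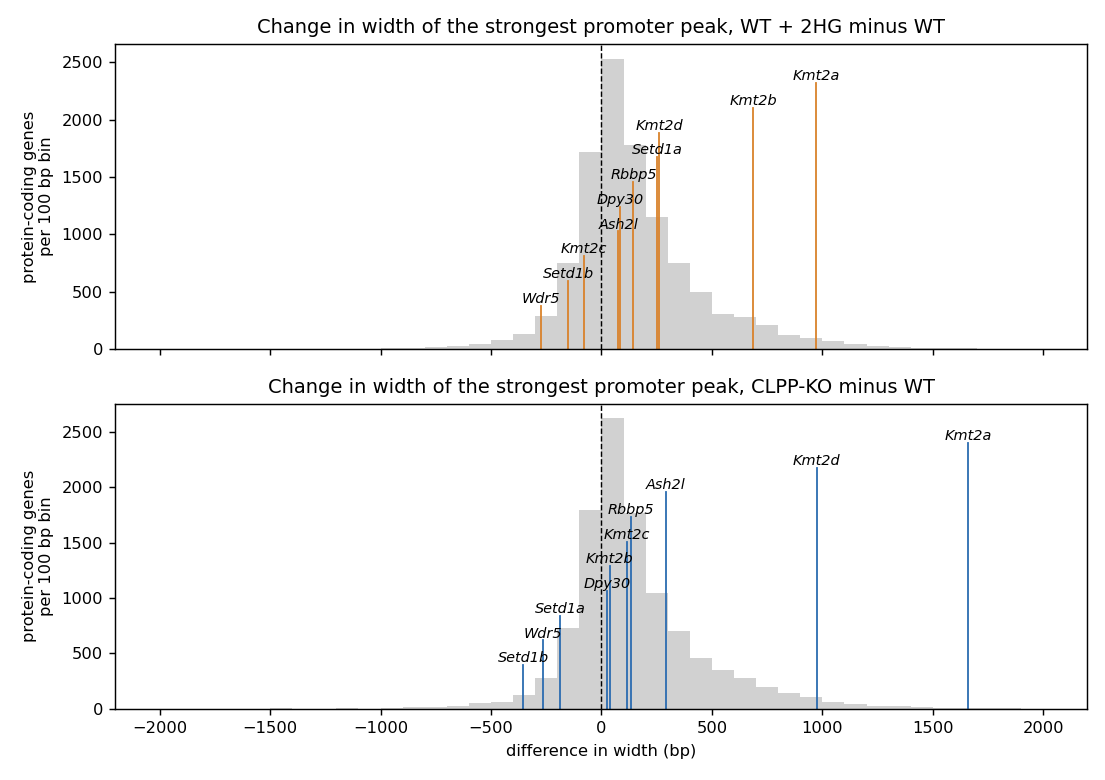
Difference in width of the strongest promoter peak from WT in bp, with grey bars for the number of coding genes per 100 bp bin (10 genes with 2HG and 20 in CLPP-KO lie outside the axis) and labelled lines for the 10 members. The height of a line has no meaning. Kmt2a (1659 bp) and Kmt2d (975 bp) stand in the right tail of the lower panel.

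Set against all coding genes, the number of members that were wider or higher was close to the background. The strongest peak was wider than in WT at 7 of 10 members in WT + 2HG and at 7 of 10 in CLPP-KO, and at 71.8 and 71.5% of the coding genes. The exceptions were Kmt2c, Setd1b and Wdr5 in WT + 2HG and Setd1a, Setd1b and Wdr5 in CLPP-KO. The median difference was 114.5 bp over the members and 96 bp over the coding genes in WT + 2HG, and 77.5 and 89 bp in CLPP-KO. All promoter peaks together covered more than in WT at 6 and 7 members, against 73.3 and 72.7% of the coding genes. The area percentile was higher at 7 members with 2HG and 8 in CLPP-KO, against 64.3 and 69.9%, and the shared rank at 6 and 6, against 48.5 and 47.7%. The median change in shared rank was 1.10 points with 2HG and 1.83 in CLPP-KO over the members, and -0.26 and -0.52 over the coding genes. Single members stood further out than the set. The increase in width of Kmt2a was at or above that of 97.8% of coding genes in WT + 2HG and 99.6% in CLPP-KO, that of Kmt2b was at 93.9% in WT + 2HG, and that of Kmt2d was at 97.7% in CLPP-KO. At the other end, 2.11% of coding genes had a change at or below that of Setd1b in CLPP-KO, and 3.47 and 3.48% a change at or below that of Wdr5 in WT + 2HG and CLPP-KO. With all promoter peaks counted, the increase of Kmt2a was at or above 84.9% of coding genes with 2HG and 94.8% in CLPP-KO. That of Kmt2b was at or above 98.4% with 2HG and 96.3% in CLPP-KO, and that of Kmt2d 97.0% in CLPP-KO. Setd1b in CLPP-KO turned to an increase, at or above 83.0%. A change at or below that of Ash2l was found at 1.71% of coding genes with 2HG and 6.27% in CLPP-KO. The 2 contrasts share their WT list, so a WT value that happens to be low or high moves each of them.

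**Figure D4:**
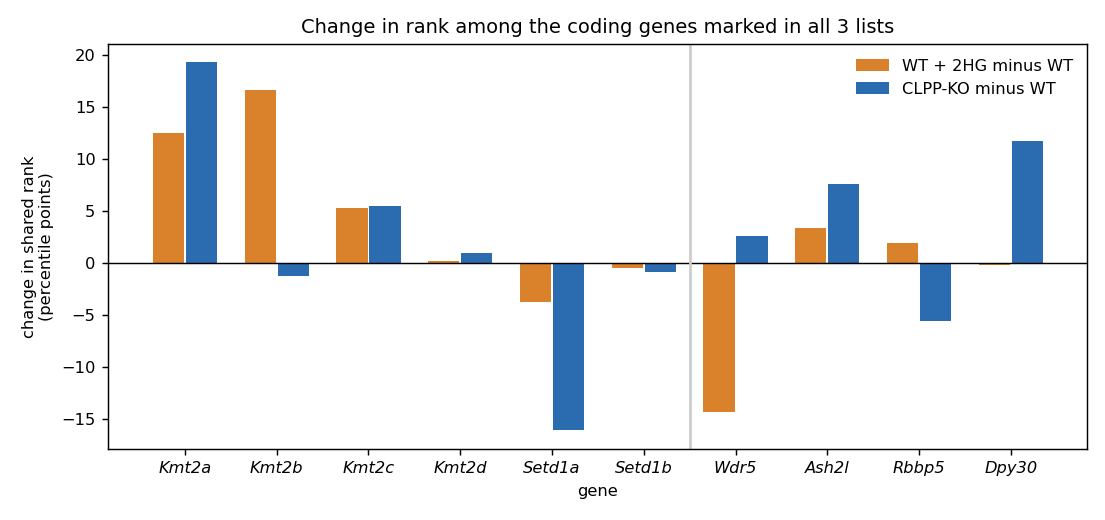
Change in shared rank from WT, in percentile points among the 11021 coding genes marked in all 3 lists, with 1 bar per gene and treated list and no error. Kmt2a, Kmt2c, Kmt2d and Ash2l are higher in both, Setd1a and Setd1b lower in both, and Kmt2b, Wdr5, Rbbp5 and Dpy30 differ in sign between the lists.

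Features of position that were not used to choose the genes were found at some members only. In WT the upstream edge of the strongest peak lay 0 to 100 bp before the canonical start at Kmt2a, Kmt2b, Kmt2c, Ash2l and Rbbp5, 5 of 10 members against 22.3% of the coding genes. The rule for this count was set after these peaks had been seen, so nothing is read from the count. At 5 of 10 members, against 23.1% of coding genes, the strongest WT peak held the start of a lncRNA on the opposite strand, namely Gm39326 at Kmt2a, Gm71682 at Kmt2b, Gm71748 at Kmt2c, AI480526 at Setd1b and Gm74607 at Wdr5. A wider peak has more room for such a start, and the share was not matched for width. The median WT width was 1428.5 bp over the members and 906 bp over the coding genes. H3K4me3 carries no strand, so a peak at such a promoter cannot be given to the gene or to the lncRNA. The start of Mir3569 also lay in the marked upstream flank of Kmt2b in WT + 2HG and CLPP-KO. No member had a peak in its gene body outside the promoter windows.

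The promoter DNA was described by its content of CpG, the dinucleotide that the CXXC domains of KMT2A and KMT2B bind when it is unmethylated. RefSeq promoter windows of 300 bases were matched by symbol for 7 of the 10 genes, and each of their 10 windows had 1 exact match in the gene's region of GRCm39. G+C content was 75.7% at Kmt2a, 88.0% at Kmt2c, 62.7% at Kmt2d, 73.7% at Setd1a, 59.0% at Wdr5, 44.0% at Rbbp5, 40.7% in the Dpy30 window without a peak and 66.3% or more in its other 3, against a median of 52.7% over 32851 windows of the table. Kmt2c, with 56 CpGs, was at or above 99.8% of the windows for that count. The ratio of observed to expected CpG of the window printed for Rbbp5 was 1.13, at or above 98.7% of windows, although its G+C content was at or above only 20.1%. The GC box GGGCGG, read on both strands, was present in 5 of the 10 member windows and in 35.7% of all windows. The CCAAT box CCAAT was present in 1 of the 10 member windows, the Dpy30 window without a peak, and in 37.4% of all windows. Neither TATAAA (13.6% of all windows) nor the ETS core CCGGAAG (8.86%) was found in a member window. These are matches of letters in a window and not sites of binding. The windows of the table were not limited to marked genes, while all members were marked. The window shares and the median of 52.7% therefore do not compare like with like. Under the peaks of all 10 members in WT, the ratio of observed to expected CpG ran from 0.550 at Kmt2a to 0.952 at Kmt2c, with a median of 0.766 over the coding genes. At 6 of the 10 members (Kmt2a, Kmt2b, Kmt2d, Setd1b, Wdr5 and Rbbp5) it was below that median. By this ratio the members were not CpG-rich as a set against other marked promoters. By the count of CpGs under the WT peak, not scaled to width, all members but Ash2l (68) and Rbbp5 (31) stood above the coding median of 68.

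Other genes of H3K4 methylation were marked in nearly all cases. All 12 accessory subunits had a promoter peak in every list, as did 5 of 7 other or related methyltransferases, 5 of 6 H3K4 demethylases and 12 of 13 readers of H3K4me3. Smyd1, a methyltransferase of muscle, Kdm5d, the Y-linked demethylase, and Ing4, a reader, had no promoter peak in any list. The peak-calling command that the authors report leaves out chromosomes X and Y. The lists hold peaks on X all the same, so whether a peak could be called at Kdm5d cannot be told. Prdm9, the methyltransferase of meiotic recombination sites, had none in WT and a weak one in WT + 2HG (percentile 17.2) and CLPP-KO (8.98).

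The 2 largest differences in area percentile between CLPP-KO and WT went opposite ways in 3 of these lists and both upward among the readers. Among accessory subunits, the X-linked Hcfc1 went from 67.4 in WT to 52.9 with 2HG and 42.8 in CLPP-KO, and Wdr82, which anchors the SETD1 complexes to RNA polymerase II, from 54.9 to 79.5 and 72.6. Among the other methyltransferases, Smyd2 was at 52.2, 82.8 and 76.9 and Smyd3 at 56.5, 59.1 and 48.5. Among the demethylases, Kdm1b, which acts on mono- and dimethyl H3K4, was at 82.1, 95.2 and 92.0, and Kdm5a, a dioxygenase that removes the trimethyl mark, at 91.1, 80.4 and 81.4. Of the readers, the X-linked Phf8 was at 14.2, 31.5 and 41.7 and Ing5 at 51.0, 62.5 and 73.3. The strongest peak was higher in percentile than in WT at 8 of 12 accessory subunits, in WT + 2HG and in CLPP-KO alike. The counts were 5 and 4 of 5 other methyltransferases in the same order. They were 1 and 2 of 5 demethylases and 8 and 8 of 12 readers. Over all coding genes the shares were 64.3 and 69.9%, as given above. By shared rank the counts were 7 and 4 of 12 accessory subunits, 2 and 4 of 5 other methyltransferases, 1 and 2 of 5 demethylases and 8 and 7 of 12 readers.

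**Figure D5:**
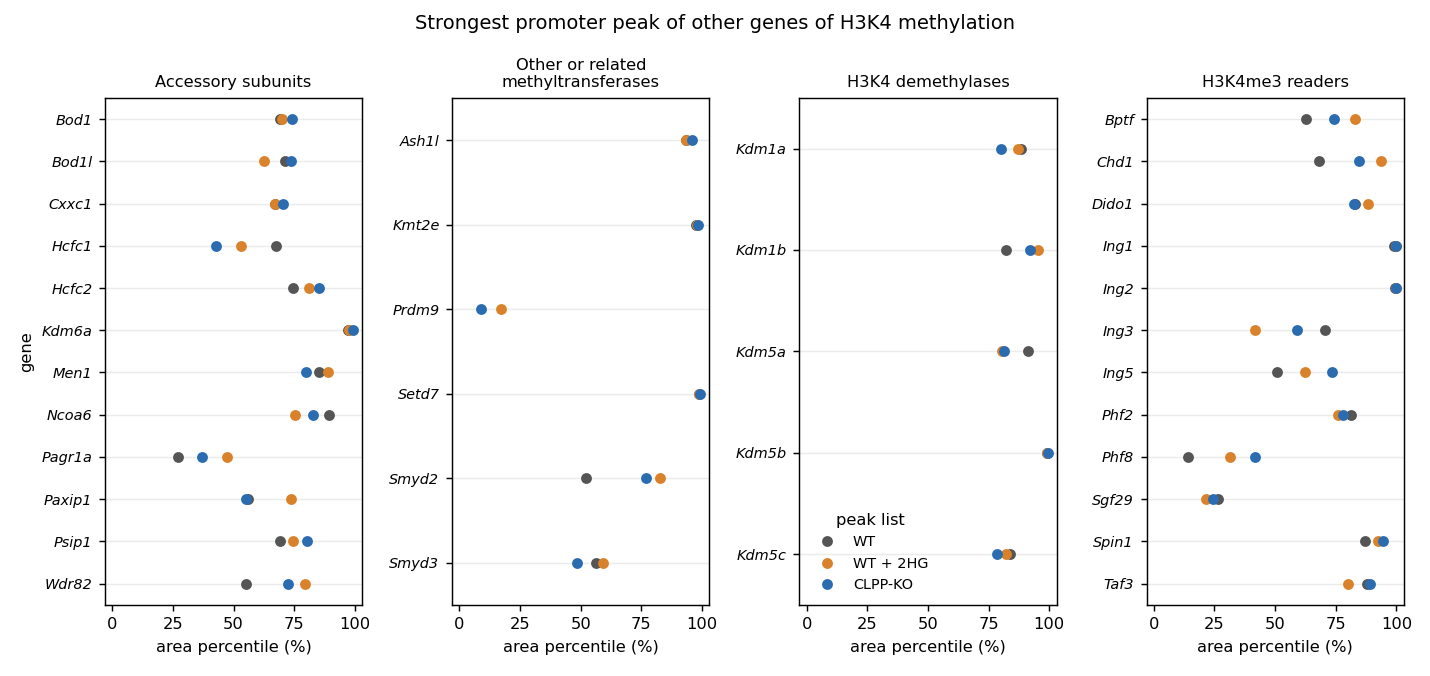
Area percentile, in percent of the list at or below it, of the strongest promoter peak of the other genes of H3K4 methylation, by list of genes and with 1 point per peak list (4 replicates pooled, no error). Genes with no promoter peak in any list are left out. Hcfc1 is at 67.4 in WT and at 42.8 in CLPP-KO, and Phf8 at 14.2 and 41.7.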

How the data were processed

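H3K4me3 ChIP–seq was performed in 12 samples of mBA cells, in 3 groups of 4 (WT, WT + 2HG, CLPP-KO), with 3 inputs. The authors trimmed reads with fastp 0.23.4, mapped them to GRCm39 with BWA 0.7.17, and called peaks with Genrich 0.6.1 on the 4 replicates of a condition together. The submitters' processing notes also name deepTools 3.5.4. The deposited score of a peak is capped at 1000. The deposited signal is an area under the authors' −log10 p curve, and the summit's −log10 p-value is deposited with it. The deposited q field, read as a score, is −1 throughout. The methods state a single nominal depth. The lists hold no read counts, so the depth of each was not checked, and no error is given.

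Promoter peaks were those overlapping, by at least 1 bp, 2000 bp either side of any of the start sites of a gene in GENCODE M39. Percentiles were taken within each list. RefSeq promoters (GRCm38.p6) were placed by exact match of their bases to GRCm39. The join of peaks to genes was tested on simulated data and against bedtools 2.31.1. Scripts ran under Python 3.11.15 with pandas 2.3.3, numpy 2.4.6 and matplotlib 3.10.9.

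The members and lists were chosen with earlier results of these data known. All 10 members were named, with genes of the other lists that were marked in some or no lists and the 2 with the largest difference between CLPP-KO and WT. The alternatives changed the window, starts, peak choice, ranking and thresholds.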

Additional observations from a re-analysis of the deposited data

How the results depend on the processing

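The 5 counts of members and the values of each member were recomputed under 12 alternatives: windows of 1000 and 3000 bp, coding or canonical starts only, all promoter peaks together, ranking by summit −log10 p, shared rank, chromosomes 1 to 19, the 12342 strongest peaks of each list, a summit p of at most 1e-05, an area of at least 1000, and 50% of the peak inside the window. A promoter peak in all 3 lists was found at 10 members under each. The count wider than in WT was 7 in CLPP-KO throughout and 6 or 7 in WT + 2HG. A change of ranking cannot alter a width. The width differences of the members changed only with all promoter peaks together, so the other alternatives say little about them. The count at a higher percentile was 6 to 8 in CLPP-KO, and in WT + 2HG it was 4 by summit −log10 p and 6 or 7 otherwise. Of 40 differences of WT + 2HG or CLPP-KO from WT, in width or in percentile, 30 kept their sign throughout. For the widths among them, only the alternative with all promoter peaks together changed a value. With all promoter peaks together the width difference became 402 bp at Setd1b and -187 bp at Ash2l in CLPP-KO, and -401 bp at Ash2l in WT + 2HG. By summit −log10 p the percentile difference from WT became -9.45 points at Kmt2a, -1.35 at Kmt2d and -7.54 at Ash2l in WT + 2HG, and -4.93 at Kmt2d in CLPP-KO. By shared rank it became -1.22 at Kmt2b and -5.53 at Rbbp5 in CLPP-KO and -0.15 at Dpy30 in WT + 2HG, and with equal-sized lists -1.13 at Kmt2b and -8.36 at Rbbp5 in CLPP-KO. In CLPP-KO the percentile of Kmt2a was above WT and that of Setd1a below it under all 12. The share of all coding genes with a higher percentile was 69.9% in CLPP-KO and 47.3% with equal-sized lists, so the percentile moves with the size of the list. No paired analysis was possible because each deposited list pools the 4 replicates of its condition. For the same reason no replicate could be left out. Depth per list was not checked, and a peak missing from a list may be below its threshold.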
